A study of Homo sapiens with 12 samples.

Results

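The BH3-only genes encode the proteins that start the mitochondrial route of programmed cell death. The 8 genes described here are BCL2L11, BMF, BBC3, PMAIP1, BAD, BIK, HRK and BID, chosen by name, and all 8 were found among the 37247 Ensembl gene identifiers of the 2 expression tables. RNA was sequenced from 4 groups of 3 libraries each: LC-2/ad lung adenocarcinoma cells after 48 h in 100 nM selpercatinib, untreated LC-2/ad parent cells, TPC-1 papillary thyroid carcinoma cells after the same treatment, and untreated TPC-1 parent cells. Selpercatinib inhibits the RET receptor tyrosine kinase, and both lines are known to carry a RET fusion, which all 4 groups share. Each line stands for 1 tumour, the parent cells are labelled as having no treatment, and the labels do not say whether they received the solvent. They also leave unsaid whether each library had a culture of its own, so the p-values measure spread among libraries that may be technical only.

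A BH3-only protein binds survival proteins such as BCL2, BCL-XL and MCL1 through its BH3 helix, and some members also activate BAX and BAK directly. Released BAX and BAK permeabilise the outer mitochondrial membrane, cytochrome c leaves the mitochondria and caspases are activated. In cells that depend on a kinase, growth factor signalling is known to hold these proteins back: it marks BIM, the product of BCL2L11, for degradation, AKT keeps FOXO factors that transcribe BCL2L11 and BBC3 out of the nucleus, and phosphorylated BAD is held by 14-3-3 proteins. Much of this control acts on the proteins, which RNA levels do not show.

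In LC-2/ad, treated libraries held more BMF, BBC3, BCL2L11 and BIK transcript and less PMAIP1 and BID transcript than parent libraries. BMF changed most, to 129 ± 5.42 TPM in treated cells, against 38.7 ± 1.37 TPM in parent cells (mean ± SD, n = 3 each). In TPC-1 the one BH3-only transcript that passed the test was again BMF, at 11.01 ± 1.99 TPM in treated cells and 6.48 ± 0.787 TPM in parent cells. TPM is the abundance of a transcript corrected for its length and scaled to the same total in every library. By limma, a linear model on log2(TPM + 1) with p-values adjusted over all genes tested (threshold 0.05), 4 of 7 tested members were higher and 2 lower in treated LC-2/ad cells, where 30.6% of 14118 tested genes were higher and 24.4% lower. In TPC-1 1 of 7 tested members was higher and 0 lower, with 3.75% of 12825 tested genes higher and 1.21% lower. At an unadjusted p under 0.05 PMAIP1 was also higher in TPC-1. The median log2 fold change of the tested members was 0.44 in LC-2/ad, beside 0.07 over all tested genes, and 0.25 in TPC-1, beside 0.05. HRK lay below the filter on low values (a mean of at least 1 TPM over the 6 libraries of a line) in both lines and was not tested, so that these counts and medians do not describe all members.

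**Figure D1:**
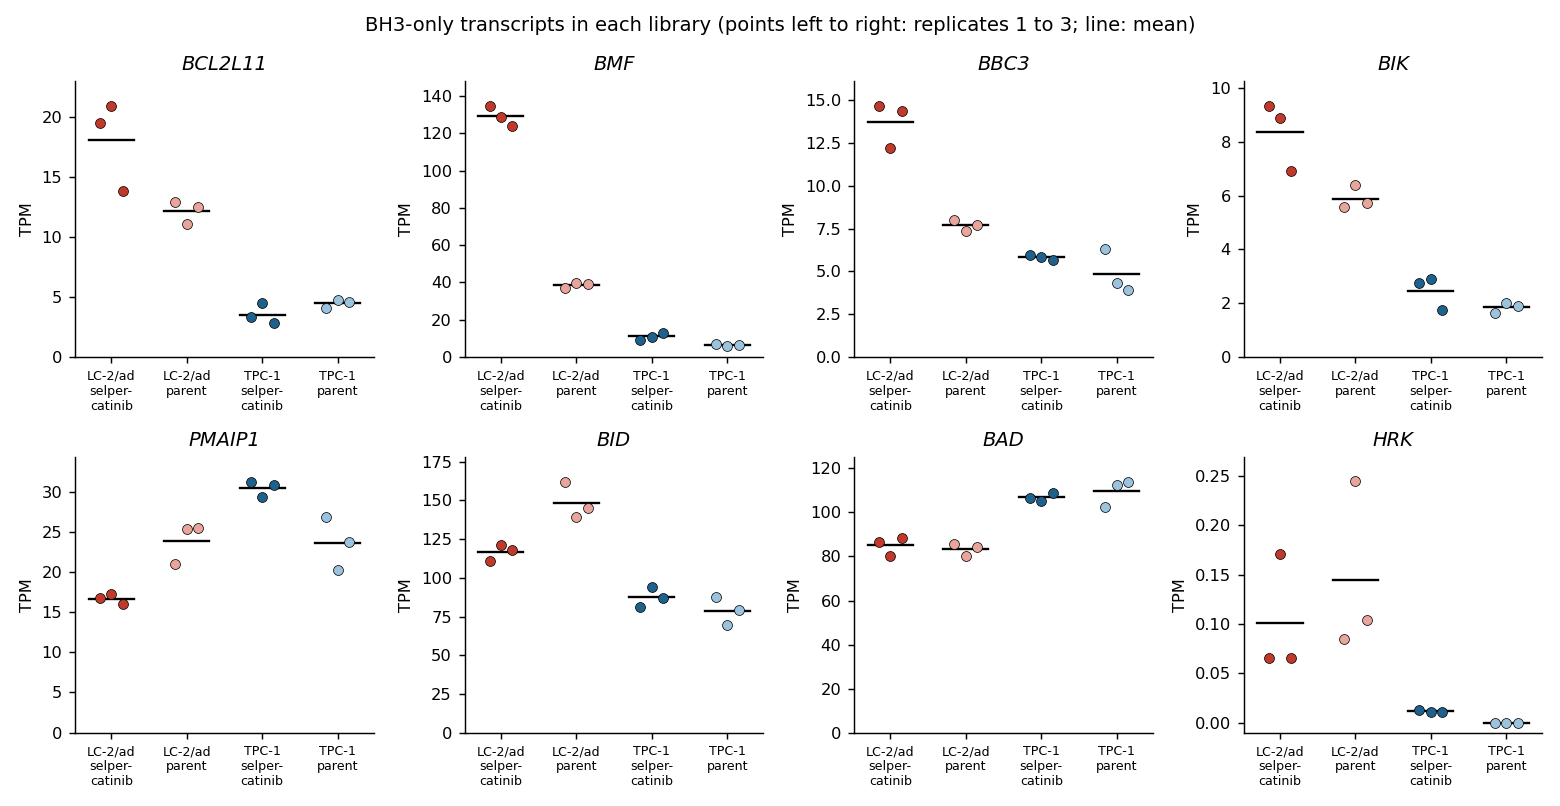
TPM (linear axis) of each BH3-only gene in every library, with 1 panel per gene. Points are libraries, the line is the group mean of 3. BMF lies at 124 to 135 TPM in treated LC-2/ad cells and at 37.2 to 39.9 TPM in their parent cells.

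The promoters of BCL2L11, BMF and BBC3, 3 of the 4 BH3-only genes that rose together in LC-2/ad, are shown for the DNA around their transcription starts. The other riser, BIK, had no window among the promoter sequences used and was not searched. RefSeq sequences (GRCh38.p14, 250 bases before to 50 after a start) were found for 7 of the 8 members, in 13 windows, some of which overlap. Each window was searched on both strands for 4 motifs: the FOXO motif GTAAACA, the ETS motif CCGGAAGT, the cyclic AMP response element TGACGTCA and the E-box CACGTG. Of all 35116 RefSeq promoter windows, 3.42% held the FOXO motif, 4.14% the ETS motif, 1.85% the cyclic AMP response element and 7.26% the E-box. The printed sequences run 5′ to 3′ on the strand of the gene, with any motif found in capitals.
BCL2L11 (plus strand, chr2:111120664-111120963): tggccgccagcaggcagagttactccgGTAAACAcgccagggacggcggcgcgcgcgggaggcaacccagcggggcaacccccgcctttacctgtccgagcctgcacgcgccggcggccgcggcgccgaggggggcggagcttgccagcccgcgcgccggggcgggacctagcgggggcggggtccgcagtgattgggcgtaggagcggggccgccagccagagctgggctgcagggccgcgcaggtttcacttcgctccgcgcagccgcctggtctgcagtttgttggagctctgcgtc
BMF, upstream start (minus strand, chr15:40108830-40109129): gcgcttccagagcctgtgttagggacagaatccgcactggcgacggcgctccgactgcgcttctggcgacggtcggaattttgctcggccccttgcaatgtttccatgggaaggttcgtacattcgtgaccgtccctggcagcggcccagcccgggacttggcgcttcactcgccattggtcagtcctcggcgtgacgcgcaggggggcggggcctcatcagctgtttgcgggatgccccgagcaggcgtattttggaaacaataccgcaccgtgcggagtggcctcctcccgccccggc
BMF, downstream start (minus strand, chr15:40106917-40107216): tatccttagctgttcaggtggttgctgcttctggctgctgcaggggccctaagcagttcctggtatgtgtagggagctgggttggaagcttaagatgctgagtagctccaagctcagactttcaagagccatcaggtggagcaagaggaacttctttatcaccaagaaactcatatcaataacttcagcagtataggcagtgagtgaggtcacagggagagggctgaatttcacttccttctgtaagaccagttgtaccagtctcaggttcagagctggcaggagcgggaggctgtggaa
BBC3 (minus strand, chr19:47232618-47232917): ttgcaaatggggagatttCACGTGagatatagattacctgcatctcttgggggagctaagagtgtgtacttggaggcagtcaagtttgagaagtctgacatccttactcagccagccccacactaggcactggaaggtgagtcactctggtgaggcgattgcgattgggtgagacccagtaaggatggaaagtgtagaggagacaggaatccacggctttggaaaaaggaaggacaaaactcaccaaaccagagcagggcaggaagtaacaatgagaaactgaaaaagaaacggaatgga
The BCL2L11 window held 1 FOXO motif, which begins 223 bases before the start. No other member window held that motif, and neither BMF window held any of the 4. The BBC3 window held 1 E-box, which begins 232 bases before the start, and another E-box stood where 2 windows of BID overlap. No member window held the ETS motif or the cyclic AMP response element. The BCL2L11 window was richer in G and C (74.7%) than the BMF windows (65.0% and 50.3%) and the BBC3 window (48.0%). A motif match is a description of letters and not evidence of binding.

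BCL2L11 (ENSG00000153094, chromosome 2, 111119378 to 111168447, GRCh38, GENCODE 29) encodes BIM, which binds every survival protein of the family and can activate BAX directly. Selpercatinib libraries 1 to 3 of LC-2/ad held 19.5, 21.0 and 13.9 TPM, against 12.9, 11.1 and 12.5 TPM in the parent libraries. All treated values lay above all parent values, but treated library 3 lay close to the highest parent library. The log2 fold change was 0.52 ± 0.15 (SE), with a limma adjusted p of 0.0174. The call held in 3 of the 6 fits that left out 1 library and ended without parent library 2 (limma adjusted p = 0.0587), treated library 1 (0.0564) or treated library 2 (0.0558). In TPC-1 the level was lower throughout, at 3.34, 4.49 and 2.80 TPM in treated libraries and 4.06, 4.77 and 4.56 TPM in parent libraries. These groups overlapped, and the log2 fold change of -0.28 ± 0.17 (95% interval -0.66 to 0.09) did not pass (limma adjusted p = 0.371). A gene-level TPM does not separate the BIM splice forms.

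BMF (ENSG00000104081, chromosome 15, 40087890 to 40108892) encodes a BH3-only protein that binds dynein light chain 2 of the myosin V motor and is set free from the actin skeleton when cells lose attachment. Treated LC-2/ad libraries stood at 135, 129 and 124 TPM, and parent libraries at 37.2, 39.9 and 39.1 TPM. The groups were far apart relative to the spread within each. The log2 fold change was 1.71 ± 0.05 (limma adjusted p = 3.62e-07), the 99th largest rise among 14118 tested genes, and it lay between 1.68 and 1.74 when any 1 library was left out. TPC-1 held less BMF, with 9.12, 10.8 and 13.1 TPM in treated libraries and 7.19, 5.64 and 6.60 TPM in parent libraries. Treated and parent values did not overlap there, and the log2 fold change was 0.68 ± 0.15 (limma adjusted p = 0.0346), the 304th largest rise among 12825 genes. That call was kept in 2 of the 6 fits that left out 1 library. It ended without parent library 2 (limma adjusted p = 0.116) or 3 (0.113) and without treated library 2 (0.105) or 3 (0.0795), with the fold change between 0.56 and 0.79 over the 6 fits.

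BBC3 (ENSG00000105327, chromosome 19, 47220822 to 47232766) encodes PUMA, a stress-induced protein that, like BIM, binds all survival proteins. Its TPM were 14.7, 12.2 and 14.4 with selpercatinib in LC-2/ad, and 7.99, 7.38 and 7.73 in the parent libraries. Every treated library exceeded every parent library by far more than the spread of the parent libraries, and the log2 fold change was 0.76 ± 0.09 (limma adjusted p = 0.000272). In TPC-1 the treated libraries were close together at 5.95, 5.83 and 5.66 TPM, while parent libraries ranged more widely at 6.29, 4.30 and 3.90 TPM. Parent library 1 lay above all treated libraries, and the log2 fold change of 0.25 ± 0.16 (95% interval -0.12 to 0.62) did not pass (limma adjusted p = 0.428). Without that parent library it was 0.42, still short of the threshold (limma adjusted p = 0.112).

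BIK (ENSG00000100290, chromosome 22, 43110748 to 43129712) encodes a BH3-only protein of the endoplasmic reticulum. Its TPM in treated LC-2/ad libraries were 9.33, 8.88 and 6.90, against 5.58, 6.38 and 5.73 in parent libraries. The groups did not overlap, but treated library 3 again lay nearest the parent cells, as it did for BCL2L11 and BMF. The log2 fold change was 0.44 ± 0.12 (limma adjusted p = 0.0184). It passed in 2 of the 6 fits that left out 1 library and missed without parent library 1 (limma adjusted p = 0.0549) or 3 (0.0540) and without treated library 1 (0.0635) or 2 (0.0597). TPC-1 held 2.76, 2.91 and 1.74 TPM in treated libraries and 1.62, 2.02 and 1.90 TPM in parent libraries. Treated library 3 fell within the parent range, and the log2 fold change of 0.27 ± 0.19 (95% interval -0.16 to 0.69) did not pass (limma adjusted p = 0.456).

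PMAIP1 (ENSG00000141682, chromosome 18, 59899948 to 59904306) encodes NOXA, which binds MCL1 and is induced by stress signalling. It moved against the 4 risers in LC-2/ad, with 16.8, 17.2 and 16.1 TPM in treated libraries and 21.0, 25.3 and 25.4 TPM in parent libraries. All treated values were lower than all parent values, and the log2 fold change was -0.49 ± 0.09 (limma adjusted p = 0.00194). In TPC-1 all treated values, at 31.2, 29.4 and 30.9 TPM, lay above the parent values of 26.9, 20.3 and 23.8 TPM. The log2 fold change of 0.36 ± 0.10 (95% interval 0.13 to 0.59) had an unadjusted limma p of 0.00651 and an adjusted p of 0.0825, which missed the threshold. Without parent library 1, the highest of its group, it was 0.45 with a limma adjusted p of 0.0326.

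BID (ENSG00000015475, chromosome 22, 17734138 to 17774770) encodes the member that caspase 8 cuts into an active fragment, linking death receptors to mitochondria. LC-2/ad libraries held 111, 121 and 118 TPM after treatment, against 162, 139 and 145 TPM in parent cells, where it was the most abundant BH3-only transcript. The treated libraries lay wholly below the parent libraries, and the log2 fold change was -0.34 ± 0.06 (limma adjusted p = 0.00247). In TPC-1 the treated libraries held 81.4, 94.1 and 86.7 TPM and the parent libraries 87.8, 69.6 and 79.0 TPM. These overlapped, with a log2 fold change of 0.15 ± 0.09 (95% interval -0.05 to 0.36, limma adjusted p = 0.382).

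BAD (ENSG00000002330, chromosome 11, 64269830 to 64284704) encodes the member that survival kinases phosphorylate and 14-3-3 proteins hold. Its level was near the same in all LC-2/ad libraries, at 86.5, 80.3 and 88.5 TPM after treatment and 85.5, 80.4 and 84.4 TPM in parent cells. The log2 fold change was 0.03 ± 0.05, with a 95% interval of -0.09 to 0.15 (limma adjusted p = 0.668). In TPC-1 it was 106.5, 105.3 and 109.0 TPM after treatment, all within the parent range, and 102.4, 112.5 and 113.9 TPM in parent cells, a log2 fold change of -0.03 ± 0.06 with an interval of -0.17 to 0.10 (limma adjusted p = 0.783). Of the annotated exon bases of BAD 23.7% are shared with exons of GPR137 on the opposite strand, and the sources used here do not say whether counting used strand. GPR137 stood at 57.9 ± 2.53 TPM in treated and 45.3 ± 1.05 TPM in parent LC-2/ad cells (log2 fold change 0.35 ± 0.05). The exons of BCL2L11 and BMF share 10.9% and 8.5% of their bases with the antisense genes MIR4435-2HG and BMF-AS1, which were not analysed here.

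HRK (ENSG00000135116, chromosome 12, 116856144 to 116881441), a BH3-only gene best known from neurons, was close to 0. It stood at 0.0658, 0.171 and 0.0655 TPM in treated LC-2/ad libraries and at 0.0845, 0.245 and 0.104 TPM in parent libraries. In TPC-1 it was at 0.0131, 0.0107 and 0.0111 TPM after treatment and listed at 0 in all 3 parent libraries. No fold change is given at these levels.

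**Figure D2:**
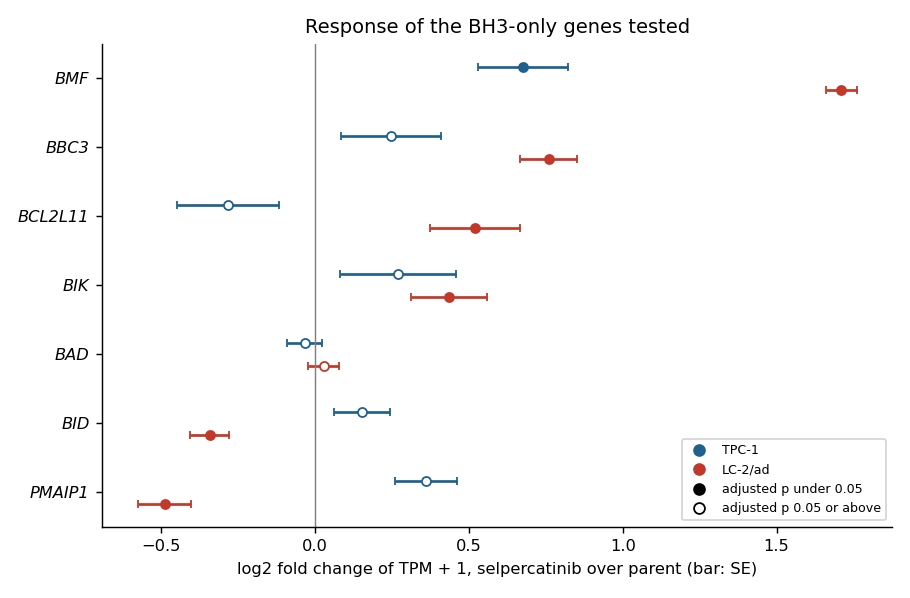
Log2 fold change of TPM + 1, selpercatinib over parent, of the 7 BH3-only genes tested, TPC-1 above LC-2/ad in each pair. Bars are SE and filled points passed a limma adjusted p of 0.05. BMF lies to the right of 0 in both lines, at 0.68 in TPC-1 and 1.71 in LC-2/ad, while BCL2L11, BID, PMAIP1 and, close to 0, BAD lie on opposite sides of 0 in the 2 lines.

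Whether the lines responded unequally was tested in a limma fit of all 12 libraries, as the TPC-1 log2 fold change less that of LC-2/ad. Of the 7 tested members 4 differed, beside 36.6% of 11996 tested genes. BMF rose less in TPC-1 than in LC-2/ad, with a difference of -1.03 ± 0.15 (limma adjusted p = 0.000203). BCL2L11 differed by -0.80 ± 0.23 (limma adjusted p = 0.0141). For PMAIP1 the difference was 0.85 ± 0.14 (limma adjusted p = 0.000417), from the fold change of 0.36 in TPC-1 and -0.49 in LC-2/ad, and for BID it was 0.50 ± 0.12 (limma adjusted p = 0.00598). All 4 kept their call in each of the 12 fits that left out 1 library. BBC3 lay at the threshold, with a difference of -0.51 ± 0.19 and a limma adjusted p of 0.0521, which ranged from 0.0167 to 0.111 over the alternatives. BIK (-0.17, 95% interval -0.64 to 0.31) and BAD (-0.06, interval -0.23 to 0.10) did not pass.

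The order of the BH3-only transcripts by TPM differed between the groups. In treated LC-2/ad cells BMF came first at 124 to 135 TPM, then BID at 111 to 121 and BAD at 80.3 to 88.5 TPM, with no overlap between these neighbours. BCL2L11 (13.9 to 21.0 TPM), PMAIP1 (16.1 to 17.2 TPM) and BBC3 (12.2 to 14.7 TPM) followed, and BCL2L11 overlapped both of the others. In LC-2/ad parent cells the order was BID, BAD, BMF, PMAIP1, BCL2L11, BBC3, BIK and HRK, and no neighbours overlapped. In TPC-1 BAD came first and BID after it in both groups, followed by PMAIP1 and BMF. The ranges of BCL2L11 and BIK overlapped in treated cells. In parent cells that of BBC3 overlapped those of BMF and BCL2L11.

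The 8 transcripts together made up 388 ± 5.53 TPM in treated and 321 ± 11.4 TPM in parent LC-2/ad cells (mean ± SD, n = 3). BMF accounted for 33.3% ± 0.95 of this sum in treated and 12.1% ± 0.85 in parent cells. The share of BID was 30.1% ± 1.57 in treated and 46.3% ± 2.13 in parent cells. In TPC-1 the sum was 248 ± 6.54 TPM in treated and 230 ± 9.33 TPM in parent cells, with BMF at 4.44% ± 0.73 and 2.81% ± 0.24 of it. BAD made up 21.9% ± 1.29 of the sum in treated and 26.0% ± 0.33 in parent LC-2/ad cells, so that BAD and BID together formed most of it in all 4 groups. In TPC-1 BAD stood at 43.2% ± 1.39 in treated and 47.8% ± 4.08 in parent cells and BID at 35.3% ± 1.74 and 34.2% ± 2.73. The summed TPM of 6 survival genes was 272 ± 6.16 in treated and 254 ± 7.96 in parent LC-2/ad cells, and 248 ± 8.91 in treated and 260 ± 9.78 in parent TPC-1 cells. These sums and shares are descriptions without a test.

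**Figure D3:**
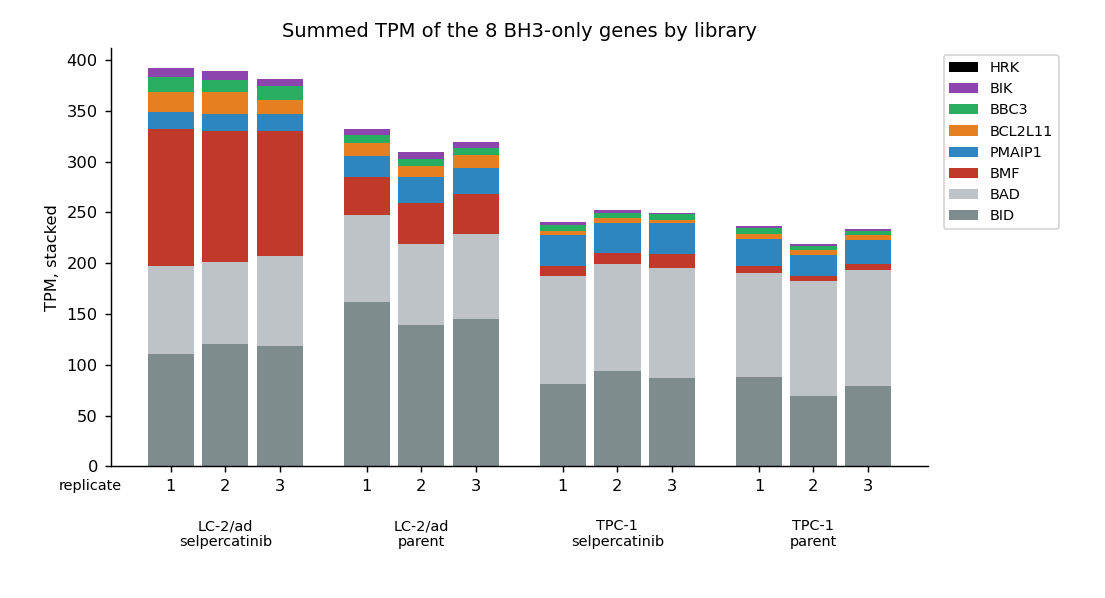
Stacked TPM (linear axis from 0) of the 8 BH3-only genes in each of the 12 libraries, grouped by line and treatment. The BMF segment takes 32.4% to 34.3% of the sum in treated LC-2/ad libraries and 11.2% to 12.9% in their parent libraries.

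The genes that act with the BH3-only proteins were described from 6 lists, against the shares of all genes given above. Of the 9 partners that hold BIM, BMF or BAD, 0 were higher and 8 lower in treated LC-2/ad cells, with a median log2 fold change of -0.30. SFN, a 14-3-3 protein, fell by 0.92 ± 0.05, YWHAH by 0.43 ± 0.04 and YWHAE by 0.34 ± 0.04, while DYNLL1, the dynein light chain that binds BIM, fell by 0.11 ± 0.03. The DYNLL1 call ended without mitochondrial genes (limma adjusted p = 0.388), a variance trend (0.0956), parent library 3 (0.0576) or treated library 2 (0.0644). DYNLL2, the light chain that binds BMF, was at -0.06 ± 0.04 and did not pass, except after median-of-ratios scaling (limma adjusted p = 0.00844). In TPC-1 YWHAH alone passed among the 9, which had a median of 0.07, and it rose by 0.38 ± 0.05. The responses of 7 of the 9 differed between the lines, all with the higher fold change in TPC-1, most for SFN (difference 1.05 ± 0.08) and YWHAH (0.81 ± 0.06).

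Among 6 survival genes, 3 were high enough to test in LC-2/ad, while TPC-1 had 5. BCL2L1, which encodes BCL-XL, rose in LC-2/ad by 0.24 ± 0.05, at 117 ± 3.41 TPM in treated and 99.2 ± 4.39 TPM in parent cells, and was at -0.20 ± 0.06 in TPC-1, where it did not pass (limma adjusted p = 0.0817). The difference between the lines was -0.44 ± 0.07 (limma adjusted p = 0.000387). MCL1 did not pass in LC-2/ad (0.01 ± 0.04) or TPC-1 (-0.13 ± 0.06). BCL2L2 did not pass either, with 0.32 ± 0.12 in TPC-1 and -0.04 ± 0.05 in LC-2/ad. Its difference between the lines of 0.36 ± 0.12 passed (limma adjusted p = 0.0391), opposite in sign to that of BCL2L1, but the call was lost in 10 of the 12 fits that left out 1 library and without mitochondrial genes, with limma adjusted p up to 0.0989. BCL2A1, which binds NOXA and BIM, rose in TPC-1 by 0.93 ± 0.12 and was below the filter in LC-2/ad. BCL2 was at 0.31 ± 0.11 in TPC-1 (limma adjusted p = 0.149) and stood at 0.353 ± 0.0931 TPM in treated and 0.375 ± 0.0773 TPM in parent LC-2/ad cells, below the filter. BCL2L10 was below it in both lines. Of the 3 effectors, BAX fell in LC-2/ad by 0.33 ± 0.05 and BAK1 (-0.13 ± 0.06) and BOK (0.24 ± 0.09) did not pass. BAK1 was lower after median-of-ratios scaling (-0.23, limma adjusted p = 0.00880) and BOK was higher without mitochondrial genes (limma adjusted p = 0.0204), at the 5 TPM filter (0.0392) or without treated library 2 (0.0108). None of the 3 effectors passed in TPC-1 by limma (BAK1 was lower at an unadjusted p under 0.05).

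Of 9 transcription factors known to induce BH3-only genes, 4 rose and 2 fell in LC-2/ad (median 0.31). FOXO4 rose by 1.13 ± 0.12, to 12.7 ± 1.82 TPM in treated cells, against 5.24 ± 0.459 TPM in parent cells. JUN rose by 0.63 ± 0.05 and FOXO3 by 0.47 ± 0.06, and DDIT3, a stress factor that induces BCL2L11, by 0.31 ± 0.07. E2F1 fell by 1.60 ± 0.09 and TP73 by 0.68 ± 0.16. FOXO1, at 0.31 ± 0.12, did not pass, though it did without mitochondrial genes (limma adjusted p = 0.0267) or a variance trend (0.0166). In TPC-1 none of the 8 tested factors passed by limma, and 3 were higher at an unadjusted p under 0.05, JUN (0.22 ± 0.07) and DDIT3 (0.53 ± 0.18) among them. DDIT3 passed without treated library 3 (0.74, limma adjusted p = 0.0249). Of the 8 factors tested in both lines the fold change was higher in TPC-1 than in LC-2/ad for 1 and lower for 4. The higher one was E2F1 (difference 1.75 ± 0.12, limma adjusted p = 2.98e-07), and among the lower ones FOXO4 differed most (-1.22 ± 0.20, limma adjusted p = 0.000485).

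Among 12 enzymes that act on BH3-only proteins, 3 rose and 5 fell in LC-2/ad (median -0.19). AKT1, the kinase that phosphorylates BAD and FOXO factors, fell by 0.47 ± 0.05, MAPK9 by 0.37 ± 0.05 and PIM1 by 0.35 ± 0.10, the last without a call once mitochondrial genes (limma adjusted p = 0.0561), parent library 2 (0.0566), treated library 1 (0.0688) or treated library 3 (0.0621) was left out, and without the filter on low values (0.0573). Among the 12, 2 rose and 7 fell after median-of-ratios scaling, and 4 rose and 3 fell without mitochondrial genes. The growth factor kinase MAPK3 rose by 0.25 ± 0.05. In TPC-1 MAPK8, which encodes the kinase JNK1, rose by 0.37 ± 0.07 and no other of the 12 passed. Its call ended without parent library 2 (limma adjusted p = 0.0591) or 3 (0.0785) or treated library 2 (0.0513), and without a variance trend (0.0502). Of 8 apoptosome and caspase genes 3 rose and 1 fell in LC-2/ad (median -0.04). CYCS, cytochrome c, fell by 0.95 ± 0.05, APAF1, which it binds, rose by 0.41 ± 0.12, and CASP9 rose by 0.30 ± 0.09. After median-of-ratios scaling 1 of the 8 rose and 3 fell, and the CASP9 call ended (limma adjusted p = 0.0755). Without parent library 2 neither CASP9 nor APAF1 passed, with limma adjusted p of 0.0532 for CASP9 and 0.0560 for APAF1. The CASP9 call also ended without parent library 3 (limma adjusted p = 0.0684) or treated library 1 (0.0688). In TPC-1 0 of the 8 passed by limma (1 higher and 1 lower at an unadjusted p under 0.05).

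**Figure D4:**
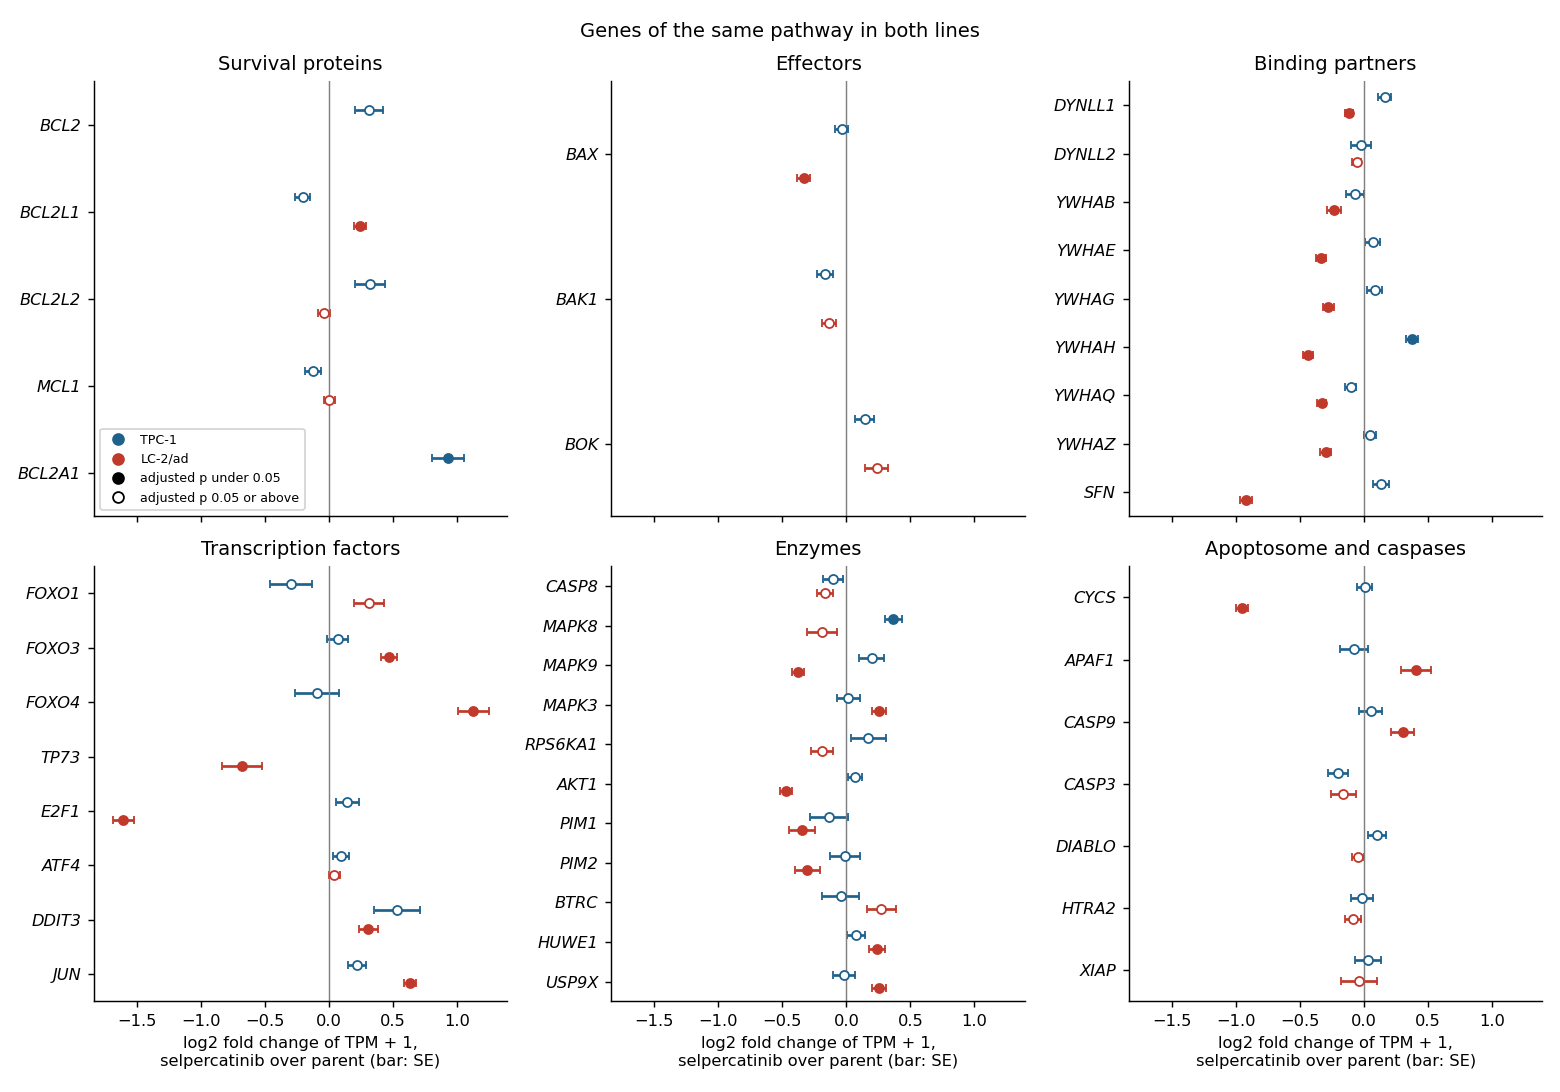
Log2 fold change of TPM + 1 (selpercatinib over parent, bars SE) of tested genes from 6 lists, TPC-1 above LC-2/ad for each gene, filled points passing a limma adjusted p of 0.05. The 9 binding partners lie left of 0 in LC-2/ad, from -0.92 for SFN to -0.06 for DYNLL2.

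Profiles most like those of BMF and BCL2L11 were sought among 8810 protein-coding genes with a mean of at least 5 TPM in each line, by the root mean square distance of log2(TPM + 1) centred within each line, over 12 libraries. The libraries share their treatment contrast and their normalisation, so the distances are descriptions. Nearest to BMF were PXDC1 (distance 0.133), the death-associated kinase DAPK1 (0.165), the collagen COL5A1 (0.175), the autophagy receptor CALCOCO1 (0.178) and the endoplasmic reticulum autophagy receptor RETREG1 (0.192). PXDC1 stood at 71.5 ± 2.78 TPM in treated and 22.8 ± 0.273 TPM in parent LC-2/ad cells, and at 13.9 ± 0.242 and 10.1 ± 1.49 TPM in treated and parent TPC-1 cells. DAPK1, unlike BMF, was more abundant in TPC-1, at 156 ± 6.94 TPM in treated and 103 ± 10.3 TPM in parent cells, than in LC-2/ad, at 48.7 ± 2.84 and 17.7 ± 0.359 TPM. Nearest to BCL2L11 were ATF2 (0.158), CMTM3 (0.160), UBE2Q2 (0.161), ETFDH (0.161) and SMARCAL1 (0.162), which are hardly separated by distance.

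Some measurements of the whole libraries moved with these results, and their part in them was not tested. Transcripts of the growth marker MKI67 stood at 16.96 ± 0.21 TPM in treated and 59.1 ± 3.8 TPM in parent LC-2/ad cells, and at 87.9 ± 6.94 and 90.9 ± 1.59 TPM in treated and parent TPC-1 cells. DUSP6, a feedback gene that growth factor signalling induces, fell by 1.00 ± 0.16 in TPC-1 and by 3.54 ± 0.09 in LC-2/ad. Its TPC-1 call ended without the filter on low values (limma adjusted p = 0.0641). RET, the target, remained expressed, and its gene-level TPM was 21.4 ± 0.683 in treated and 16.0 ± 0.422 in parent LC-2/ad cells, and 6.85 ± 0.124 and 7.04 ± 0.203 in TPC-1. Mitochondrial transcripts took 14.0% to 14.95% of the TPM in treated and 9.72% to 9.82% in parent LC-2/ad libraries, and 5.83% to 6.82% and 6.41% to 7.56% in TPC-1. After median-of-ratios scaling 24.4% of tested genes were higher and 30.6% lower in LC-2/ad, after removal of mitochondrial genes 36.3% and 19.7%, and in TPC-1 median-of-ratios scaling gave 3.28% and 1.98%, while the 6 called members of LC-2/ad kept their calls under both. TPC-1 parent library 1 lay at -4.9 on the first principal component, between the treated libraries (8.4 to 19.5) and the other parent libraries (-23.3 and -17.7). Of 5 lung epithelial markers 3 averaged at least 1 TPM in LC-2/ad (summed TPM 416 to 434 treated and 434 to 454 parent), with SFTPC at 0. Of 5 thyroid markers 2 did in TPC-1 (265 to 295 treated and 163 to 242 parent), with TG at 0.538 ± 0.379 TPM in treated and 0.775 ± 0.56 TPM in parent cells. Most of the TPC-1 sum was PAX8, at 271 ± 14.6 TPM in treated and 190 ± 38.3 TPM in parent cells. In LC-2/ad 3 of the 5 thyroid markers averaged at least 1 TPM in treated and 2 in parent cells. The 5 summed to 55.6 to 62.5 TPM in treated and 26.7 to 27.9 TPM in parent LC-2/ad cells, where FOXE1 rose by 1.56 ± 0.07. Of 7 markers of blood, endothelial and fibroblast cells, 3 did in treated and 2 in parent LC-2/ad cells (summed TPM 38.9 to 45.6 and 32.0 to 37.5) and 1 in both TPC-1 groups (24.7 to 31.4 treated and 27.4 to 31.2 parent). Most of that sum was COL1A1, with PTPRC below 1 TPM in every library. In LC-2/ad the fibroblast marker LUM stood at 2.12 ± 0.591 TPM in treated and 0.495 ± 0.0304 TPM in parent cells. LUM met the filter of 1 TPM only through the treated libraries, so its test is not given. The endothelial marker CDH5 rose in LC-2/ad by 0.59 ± 0.13 (limma adjusted p = 0.00663). Its level was 3.63 ± 0.446 TPM in treated and 2.07 ± 0.176 TPM in parent cells. PECAM1, another endothelial marker, went the other way but lay below the filter. It was at 0.244 ± 0.0757 TPM in treated and 0.738 ± 0.24 TPM in parent LC-2/ad cells. In RNA from whole cultures, fewer cells with a transcript and less transcript per cell cannot be told apart.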

How the data were processed

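RNA-seq was done on 12 libraries, 3 in each of 4 groups taken from the sample titles. The authors deposited TPM per Ensembl gene, in a separate file for each line, and per the file headers each column is 1 library. Every column summed to the same total. bcl2fastq 2.20.0, Salmon and the GRCh38 build are listed, without roles, per the submitters' processing notes. The annotation and any use of strand are not given in the sources used here. TPM keep no read counts, so the depth is unknown and no counting interval is given. Of 37247 identifiers 34436 had a symbol, and coordinates are from GENCODE 29.

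Treated and parent libraries were compared within each line on log2(TPM + 1) with limma 3.58.1 in R 4.3.3 (variance trend, two-sided, Benjamini-Hochberg over all genes tested), for genes with a mean of at least 1 TPM. Fold changes on this scale understate the change of low genes. Between lines, the TPC-1 fold change less the LC-2/ad one was tested for genes with a mean of at least 1 TPM in each line. TPM of different lines come from separate tables and were set side by side without a test. The test was tried on simulated data. Alternatives left out each library in turn, added the replicate number as a block, dropped the variance trend or the mitochondrial genes, rescaled by the median of ratios, used a pseudocount of 0.1 or 5, or set the filter to none or 5 TPM. The members and lists were chosen with earlier results of these data known. All 8 members were named, and of the 6 lists the 3 genes with the largest fold change per line. DYNLL2, FOXO3 and MAPK3 were named after their values were seen. Some listed genes enter the counts but are not reported here by name. Tables were read with pandas 2.3.3 and numpy 2.4.6 under Python 3.11.15, and plots drawn with matplotlib 3.10.9.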

Additional observations from a re-analysis of the deposited data

Results flagged for a closer look

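4 of the 7 tested BH3-only genes responded differently in the lines by limma's test of the TPC-1 log2 fold change less that of LC-2/ad. In the same test 36.6% of 11996 tested genes differed. The difference was -1.03 for BMF, which rose in both lines. It was -0.80 for BCL2L11, which was lower in TPC-1 without passing and rose in LC-2/ad. It was 0.85 for PMAIP1 and 0.50 for BID, which were both higher in TPC-1 without passing and fell in LC-2/ad.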

How the results depend on the processing

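No called BH3-only gene changed direction under any alternative. BMF, BBC3, PMAIP1 and BID kept their calls in LC-2/ad under all 14 alternatives. Without the filter on low values the higher BH3-only genes numbered 2 in LC-2/ad, while TPC-1 had 0, and over the fits that left out 1 library they numbered 2 to 4 and 0 to 2. Without a variance trend the higher BH3-only genes numbered 0 in TPC-1, beside 2.07% of all tested genes. BMF had a limma adjusted p of 0.0672 in that TPC-1 fit, and its adjusted p ranged from 0.0228 to 0.130 over its alternatives. Over all TPC-1 genes, the 481 higher and 155 lower became 203 and 69 without the filter and 266 and 90 without a variance trend. They became 222 to 676 and 70 to 139 when 1 library was left out. After median-of-ratios scaling 254 were lower. The cause of these changes was not tested. Same-numbered treated and parent libraries did not deviate together (r from -0.05 to 0.05 over the 6 pairs). With 3 libraries per group this cannot settle whether they were set up as pairs. The labels give only a number, and the main fits used no pairing. With the replicate block 4095 genes were higher and 3262 lower in LC-2/ad, against 426 higher and 116 lower in TPC-1, and the block changed no BH3-only call within a line. With it BOK passed in LC-2/ad (limma adjusted p = 0.0178), and of the differences between lines BBC3 passed (0.0480) and BCL2L2 did not (0.0706). BAD, never called, was at -0.07 in LC-2/ad after median-of-ratios scaling. BCL2L11 and BIK had no value in TPC-1 at the 5 TPM filter. The unknown depth limits what can be said of HRK.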
